A study of Sus scrofa with 18 samples.

Results

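The genes described here carry sialic acid from its sugar precursor to its release: GNPNAT1 and PGM3 of the hexosamine pathway, GNE, NANS and CMAS, which make and activate sialic acid, CMAH, which converts one activated form into another, and NEU1, a sialidase. They were chosen by name, as all probe sets of the array table whose only gene symbol in the platform annotation is one of these 7. That gave 9 probe sets out of 24123 in the table, 1 each for PGM3, GNE, NANS, CMAS and NEU1 and 2 each for GNPNAT1 and CMAH. The 18 retinas, each on its own array, were taken at postnatal day 38 from male domestic pigs, a cross of Landrace with Large White. The sialyllactose group (n = 9) drank pig milk replacer to which sialyllactose, lactose joined to sialic acid, had been added, and the control group (n = 9) drank the replacer without that supplement, which the labels call the basal level. Piglets entered the study at 3 days of age and were allotted to the diets at random, per the labels.

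Sialic acids are acidic sugars at the outer ends of the chains on glycoproteins and gangliosides, and nervous tissue is rich in them. Cells build N-acetylneuraminic acid, the common form, from UDP-N-acetylglucosamine, the end product of the hexosamine pathway, and join it to CMP in the nucleus before sialyltransferases attach it. CMP-sialic acid inhibits GNE, so the route is under feedback from its own product. Free sialic acid also comes from lysosomal breakdown and from the diet, and mammalian neural tissue carries little of the N-glycolyl form that CMAH makes.

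Values are log2 RMA levels, in which 1 unit is a 2-fold change. A probe set was called dim when its mean over the 18 arrays lay among the lowest 30% after control probe sets were removed, that is under 1.48. Of the 9 probe sets, 7 passed this filter and both CMAH probe sets were dim. Which of 2 probe sets is higher says nothing of RNA amounts, because probes differ in brightness. The tissue label was checked on retinal markers. SAG, rod arrestin, lay between 10.25 and 10.74 in the sialyllactose group and between 10.51 and 10.81 in the control group. GLUL of Mueller glia lay between 10.13 and 10.87 with sialyllactose and between 10.21 and 10.97 in the control group. Of 14 listed rod genes only 2 had a named probe set, so the check on rods rests on few genes. The other of these, CNGA1, had far lower values than SAG, and probe brightness enters that distance. It lay between 3.23 and 3.88 with sialyllactose and between 2.32 and 3.74 in the control group. Of 11 listed markers of lens, cornea and ciliary epithelium only the lens marker CRYBB1 was tested. It ranged from 1.34 to 2.09 with sialyllactose and from 1.23 to 3.0 in the control group. TTR is a marker of pigment epithelium, which is not part of the neural retina. It ranged from 5.53 to 8.09 with sialyllactose and from 4.54 to 8.32 in the control group. The other tested pigment epithelium genes had means over all arrays from 1.80 (OCA2) to 4.65 (SERPINF1). In whole retina, fewer cells of a type and less RNA per cell cannot be told apart.

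The main comparison asked whether the diets differed in the level of these genes. None of the 7 probe sets past the filter passed the limma test at an adjusted p under 0.05, where 0% of the 16799 tested probe sets did. At an unadjusted p under 0.05 there was 1, PGM3, beside 6.3% of all tested probe sets. PGM3, GNE, NANS and CMAS had lower means with sialyllactose, GNPNAT1 a higher mean in its brighter probe set, and NEU1 differed by less than 0.01. In the fit on all 18 arrays the 95% interval of every one of the 9 differences, the dim ones included, lay within 1.2-fold in either direction, as did that of 72.9% of all tested probe sets. For the dim CMAH this sets no bound, since a difference near the array floor may be understated.

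**Figure D1:**
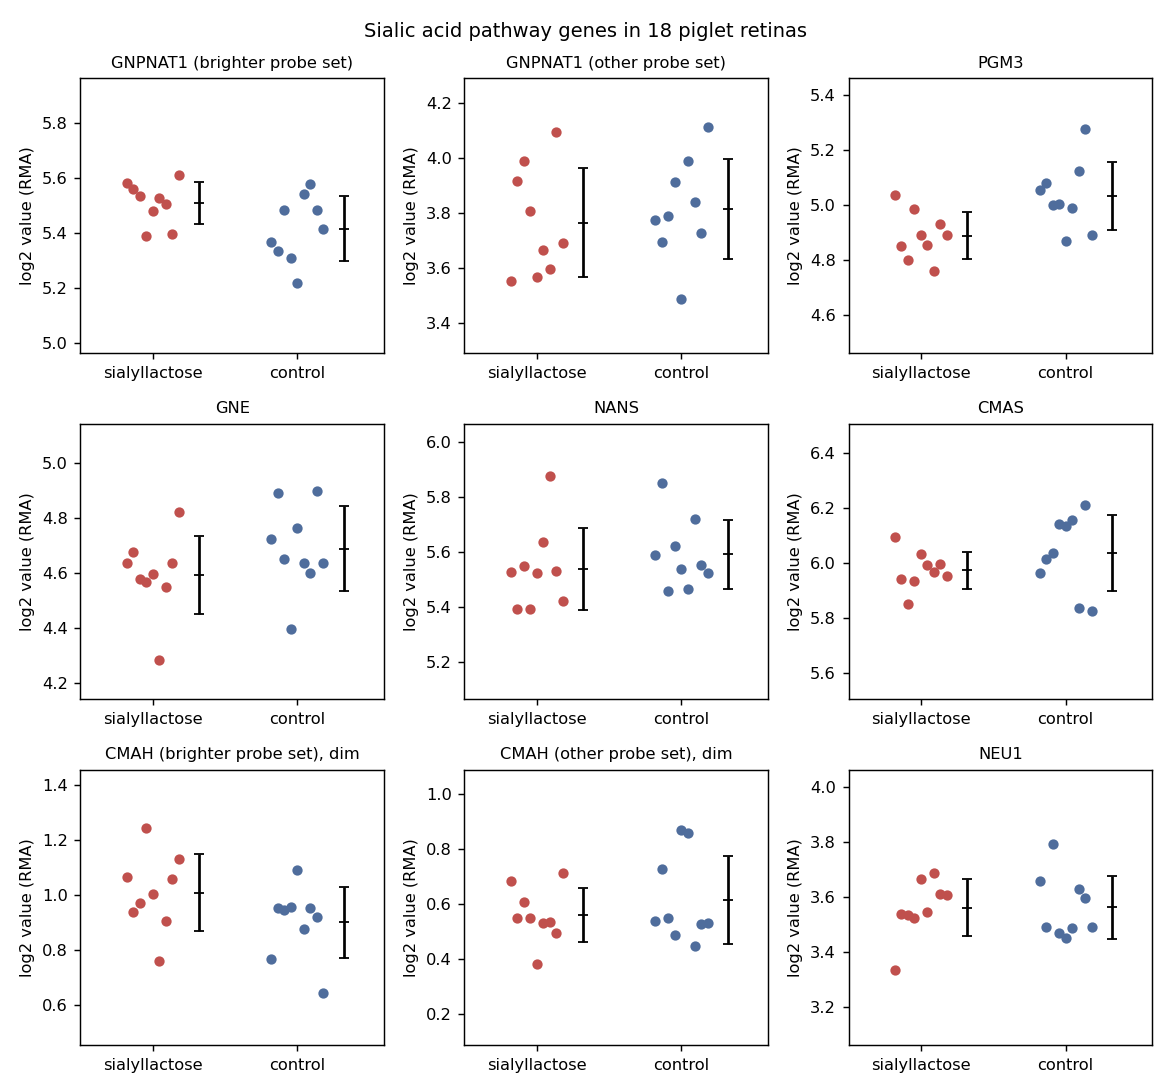
Log2 value of each probe set (y axis, 1 log2 unit high in every panel) in 9 sialyllactose and 9 control retinas, in the order of the pathway; points are retinas, bars the mean ± SD. The diets overlap in every panel, and 8 of 9 sialyllactose retinas lie below the control median in PGM3 and in CMAS, and above it in NEU1.

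GNPNAT1 opens the series of steps. It transfers an acetyl group to glucosamine 6-phosphate and so makes N-acetylglucosamine 6-phosphate. In its brighter probe set the 9 sialyllactose retinas lay between 5.39 and 5.61 with a median of 5.53, and the 9 control retinas between 5.22 and 5.58 with a median of 5.42. The ranges overlapped at the top, 4 control retinas were below every sialyllactose retina, and 7 of 9 sialyllactose retinas were above the control median. The means were 5.51 ± 0.08 with sialyllactose and 5.41 ± 0.12 in the control group (SD, n = 9 each), a difference of 0.09 (95% interval -0.02 to 0.20) with a limma adjusted p of 0.798.

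The dimmer GNPNAT1 probe set had the opposite sign. It lay between 3.55 and 4.09 with a median of 3.69 in sialyllactose retinas, and between 3.49 and 4.11 with a median of 3.79 in control retinas. Both diets covered nearly the same range. Its difference was -0.05 (95% interval -0.23 to 0.13, limma adjusted p = 0.953), and its SD within diets, 0.189, was larger than the 0.0997 of the brighter probe set. The difference was -0.012 without control replicate 9 and -0.091 without sialyllactose replicate 8, so its size rested on single retinas.

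PGM3 moves the phosphate of N-acetylglucosamine 6-phosphate to position 1, the form from which UDP-N-acetylglucosamine is made. The sialyllactose retinas ranged from 4.76 to 5.04 with a median of 4.89, and the control retinas from 4.87 to 5.28 with a median of 5.004. The groups overlapped between 4.87 and 5.04, while the lowest sialyllactose values and the highest control values had no counterpart on the other diet. The means were 4.89 ± 0.09 and 5.03 ± 0.12 (SD, n = 9 each, sialyllactose before control), and the difference was -0.14 (95% interval -0.26 to -0.03), a fold of 0.906 (0.837 to 0.980).

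An exact permutation test of PGM3 over all 48620 label assignments gave a two-sided unadjusted p of 0.0103. Across all tested probe sets its limma adjusted p was 0.753, and over the alternative settings it ran from 0.562 to 0.883, so PGM3 did not pass. The sign was negative in all 18 fits that left out 1 array, from -0.16 without control replicate 5 to -0.11 without control replicate 8.

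GNE holds both the epimerase and the kinase activity that commit UDP-N-acetylglucosamine to sialic acid, the step under feedback. Its level lay between 4.28 and 4.82 with a median of 4.60 in sialyllactose retinas and between 4.40 and 4.90 with a median of 4.65 in control retinas. The lowest value belonged to sialyllactose replicate 6 and the highest to control replicate 8, and 7 of 9 sialyllactose retinas were below the control median. Between diets GNE differed by -0.09 (95% interval -0.24 to 0.05), a fold of 0.937 (0.847 to 1.035), with a limma adjusted p of 0.862. Without sialyllactose replicate 6 the difference was -0.056.

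NANS condenses N-acetylmannosamine 6-phosphate with phosphoenolpyruvate to sialic acid 9-phosphate. Sialyllactose retinas ran from 5.39 to 5.87 with a median of 5.53, control retinas from 5.46 to 5.85 with a median of 5.55. The upper end of each diet was set by a single retina, sialyllactose replicate 7 and control replicate 2. Its difference of -0.05 (95% interval -0.19 to 0.08, limma adjusted p = 0.926) was -0.09 without the first of these and -0.02 without the second.

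CMAS joins sialic acid to CMP. Its sialyllactose values lay between 5.85 and 6.09 with a median of 5.97, inside the control range of 5.83 to 6.21 (median 6.04). Control replicates 7 and 9 were the lowest of all 18 retinas, and the other 7 control retinas were at or above 5.96. The SD was 0.07 with sialyllactose and 0.14 in the control group, a difference in spread that was not tested. The mean difference was -0.06 (95% interval -0.18 to 0.05, limma adjusted p = 0.891), and -0.041 without control replicate 8. Of the 9 sialyllactose retinas, 8 were below the control median.

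CMAH adds an oxygen to CMP-N-acetylneuraminic acid, which yields the N-glycolyl form. Both of its probe sets lay near the floor of the array. The brighter ran from 0.76 to 1.24 with a median of 1.01 in sialyllactose retinas and from 0.65 to 1.09 with a median of 0.95 in control retinas. The other ran from 0.38 to 0.71 with sialyllactose and from 0.45 to 0.87 in the control group. Fitted without the filter on dim probe sets, the differences were 0.11 (95% interval -0.03 to 0.24) and -0.05 (-0.19 to 0.08), opposite in sign, and no call was drawn from values this low.

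NEU1 removes sialic acid from glycoproteins and glycolipids in the lysosome. It ranged from 3.34 to 3.69 with a median of 3.55 in sialyllactose retinas and from 3.45 to 3.79 with a median of 3.49 in control retinas. The means were 3.56 ± 0.10 and 3.56 ± 0.11 (SD, n = 9 each), although 8 of 9 sialyllactose retinas were above the control median. The single one below it, sialyllactose replicate 1, was also the lowest of all 18. The difference was -0.0012 (95% interval -0.12 to 0.11, limma adjusted p = 0.999), and its sign turned to 0.016 when each array was centred and to 0.011 with a further quantile normalization.

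Probe sets of the same gene did not clearly follow each other from retina to retina. After the diet mean was removed, the GNPNAT1 probe sets had a Pearson r of 0.125 and a Spearman rho of 0.07 over 18 retinas (within-diet permutation p = 0.628 and 0.769, Benjamini-Hochberg adjusted p = 0.628 for r over 2 pairs). Within diets r was -0.387 with sialyllactose and 0.497 in the control group (n = 9 each), and over all retinas it was -0.15 without control replicate 5. Leaving out the 2 retinas farthest from the median of the brighter probe set likewise gave -0.15. The dim CMAH probe sets had r = 0.312 and rho = 0.283 (permutation p = 0.215 and 0.253, adjusted p = 0.430 for r), with 0.267 and 0.361 within the sialyllactose and control groups and 0.282 without the 2 farthest retinas. For comparison, the 5th and 95th percentiles of r between the brighter GNPNAT1 probe set and all other tested probe sets were -0.43 and 0.37.

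The other genes of the route were read from lists of named genes. For supply and use of UDP-N-acetylglucosamine, 10 of 15 listed gene symbols were tested. The list holds the gene of MGEA5 also under its other symbol, OGA. Of the 10, 0 passed in either direction, and 1 had a higher and 9 a lower mean with sialyllactose. The median difference was -0.02, beside -0.01 over all tested probe sets, of which 53.4% had lower means. Under either rescaling (array medians subtracted, or a further quantile normalization), 6 of the 10 had lower means instead of 9, since OGT, HK1 and MGEA5 changed sign.

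Among these, GNPDA1 and GNPDA2, deaminases that run against the flow by turning glucosamine 6-phosphate back into fructose 6-phosphate, had means of 4.75 ± 0.17 and 4.15 ± 0.15 with sialyllactose, and 4.86 ± 0.10 and 4.26 ± 0.12 in the control group. Each differed by -0.11, with limma adjusted p-values of 0.821 for GNPDA1 and 0.813 for GNPDA2. UAP1, which makes UDP-N-acetylglucosamine from the product of PGM3, was the 1 gene with a higher mean, by 0.04 (95% interval -0.08 to 0.15). The salvage and breakdown enzymes NAGK, a kinase of N-acetylglucosamine, RENBP, its epimerase, and AMDHD2, a deacetylase, differed by -0.05, -0.02 and -0.03. OGT and MGEA5, which attach and remove single N-acetylglucosamine residues on proteins, differed by -0.01 each, and of the 4 tested OGT probe sets only the brightest had that sign. GPI and HK1, at the entry of glucose 6-phosphate, differed by -0.07 and -0.01. GFPT1, which commits fructose 6-phosphate to hexosamines, had a named probe set that was dim and was not tested.

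A further list held 14 genes, mainly of sialic acid synthesis, transport, modification and release. Of these 5 were tested, 0 passed, and 2 had higher and 3 lower means (median difference -0.03). The 5 include GLB1 and GALNS, which are not enzymes of sialic acid itself. NANP, the phosphatase between NANS and CMAS, averaged 2.53 ± 0.34 with sialyllactose and 2.71 ± 0.30 in the control group, a difference of -0.17 with a wide 95% interval of -0.46 to 0.11, and of -0.096 without sialyllactose replicate 7. NPL, the lyase that degrades free sialic acid, differed by 0.07 (-0.23 to 0.37), also with a wide interval. CASD1, which adds acetyl groups to sialic acid, differed by -0.03 (-0.15 to 0.08). GLB1, the beta-galactosidase held in a complex with NEU1, differed by -0.05 (-0.22 to 0.13), and GALNS, a lysosomal sulfatase, by 0.08 (-0.09 to 0.25). The transporters SLC35A1 and SLC17A5 and the NEU1 partner CTSA were on no probe set with their symbol, so they are not reported.

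Of 6 tested sialyltransferases, which use the product of CMAS, 4 had higher and 2 lower means (median difference 0.03), with ST6GAL1 and ST3GAL4, by 0.10 and 0.06, first by unadjusted p. Of 17 tested lysosomal genes, the surroundings of NEU1, 4 had higher and 13 lower means (median difference -0.04, beside 53.4% lower over all tested probe sets, and 10 lower after array medians were subtracted). ARSA, a lysosomal sulfatase, differed by 0.15 (95% interval 0.01 to 0.28, limma adjusted p = 0.773) and TFE3, a transcription factor of lysosomal genes, by -0.10 (-0.24 to 0.04, adjusted p = 0.838). None of the genes in either list passed the limma test.

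**Figure D2:**
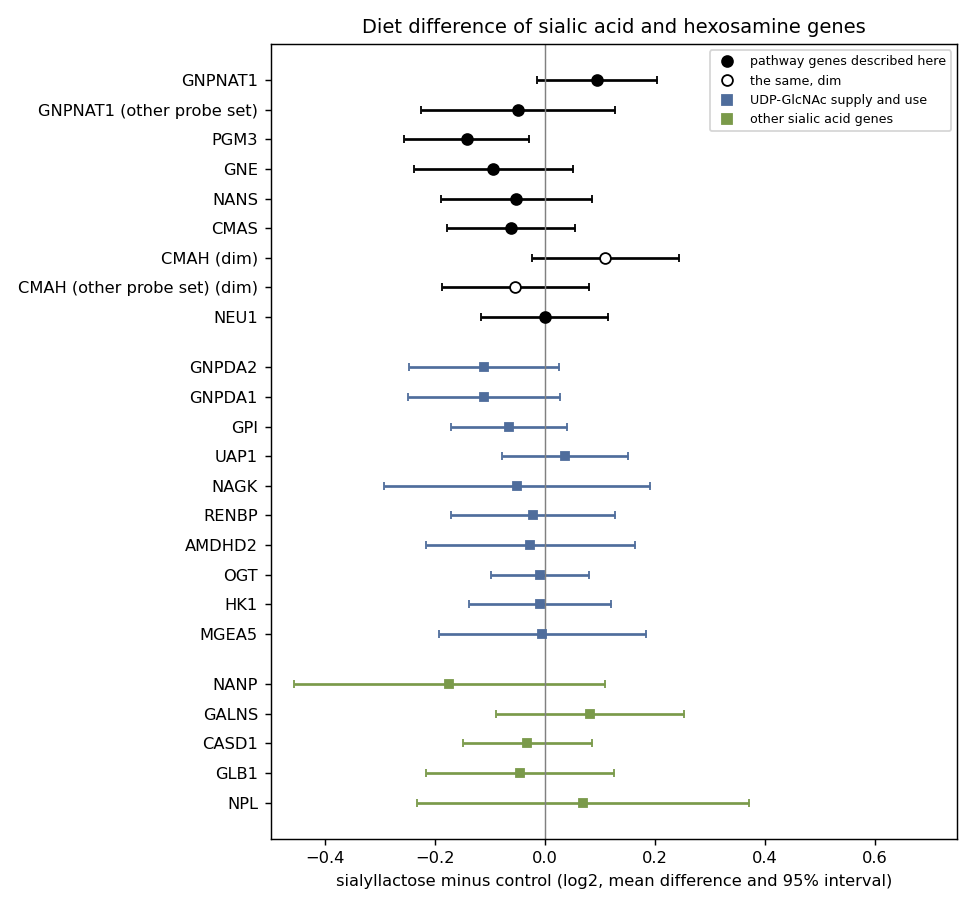
Difference in mean log2 level, sialyllactose minus control (x axis), with its 95% interval. Shown are the 9 probe sets (black, open where dim) and 10 genes of UDP-GlcNAc supply and use (blue). In green are 5 genes of the other sialic acid list, GLB1 and GALNS included. The interval of PGM3, -0.26 to -0.03, is the only one shown that does not cover 0.

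The next question was whether the genes of the route varied together between retinas. After the diet mean was removed, Pearson r was computed for all 21 pairs of the 7 genes, each at its brightest probe set, over 18 retinas, with permutations within diet. It lay between -0.27 and 0.37 with a median of 0.03, and 11 pairs were positive and 10 negative. At a Benjamini-Hochberg adjusted p under 0.05 there were 0 pairs, and at an unadjusted p under 0.05 there were also 0, by r or by rho. Several of these probe sets varied little within diets. A smaller SD was seen in 12.3% of tested probe sets for GNPNAT1, 15.7% for PGM3, 17.3% for NEU1 and 17.6% for CMAS. For CMAH, NANS and GNE it was 33.4%, 37.5% and 44.8%. How far measurement noise entered these coefficients was not tested.

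Between neighbouring steps r lay between -0.14 and 0.33. PGM3 with GNPNAT1 had r = 0.259 and rho = 0.118 (permutation p = 0.356 and 0.659), and GNE with PGM3 had r = 0.321 and rho = 0.306 (p = 0.216 and 0.233). GNE with NANS had r = -0.137 and rho = -0.264 (p = 0.588 and 0.294), and NANS with CMAS had r = -0.136 and rho = -0.054 (p = 0.591 and 0.834). CMAS with the dim CMAH had r = 0.327 and rho = 0.259 (p = 0.188 and 0.303). The Benjamini-Hochberg adjusted p over the 21 pairs was 0.894 for r in each of these 5 pairs.

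Within diets the coefficients often differed in sign, with 9 retinas behind each. GNE with NANS had r = -0.477 in the sialyllactose group and 0.230 in the control group, and without the 2 retinas farthest from the median of GNE the value over all retinas was -0.006. NANS with CMAS had 0.106 with sialyllactose and -0.295 in the control group, and -0.176 without the 2 farthest retinas. PGM3 with GNPNAT1 had -0.179 with sialyllactose and 0.460 in the control group, and 0.114 without the 2 farthest. GNE with PGM3 was positive in both, 0.204 and 0.401, and 0.372 without the 2 farthest. CMAS with CMAH had -0.018 with sialyllactose and 0.546 in the control group, and 0.189 without the 2 farthest. These differences between diets were not tested.

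The highest r, 0.370 between GNE and the dim CMAH (rho = 0.315, permutation p = 0.141 and 0.210, adjusted p = 0.894 for r), was 0.645 within the sialyllactose group and 0.10 within the control group, and 0.279 without the 2 retinas farthest from the GNE median. It was 0.136 without sialyllactose replicate 6, the retina with the lowest GNE. Against all 16798 other tested probe sets, GNE had an r between -0.41 and 0.42 for the central 90%, and its r with each of the other 6 genes lay inside that range.

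**Figure D3:**
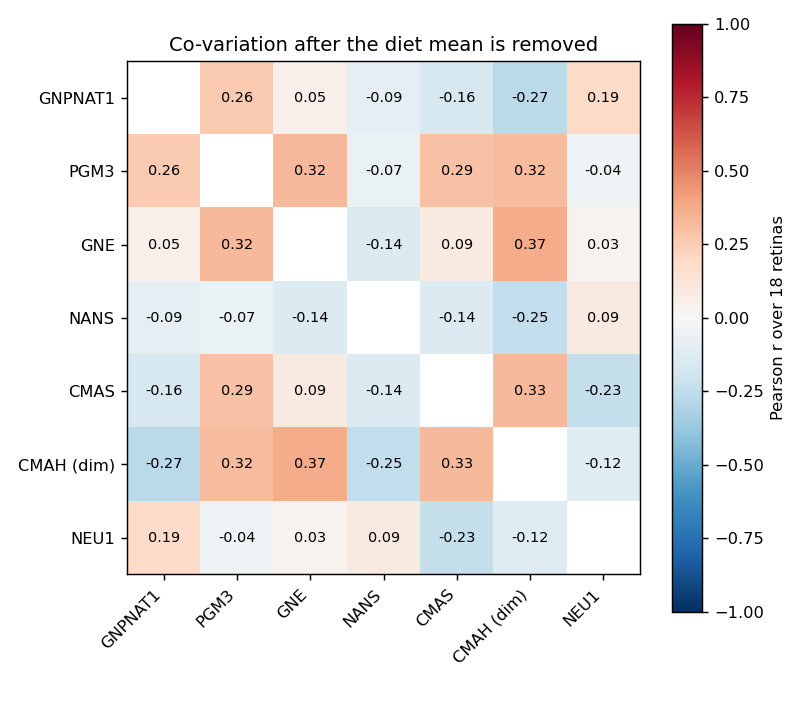
Pearson r over 18 retinas between the brightest probe sets of the 7 genes after the diet mean was removed (colour scale from -1 to 1, genes in pathway order). Coefficients run from -0.27 (CMAH with GNPNAT1) to 0.37 (GNE with CMAH), both with the dim CMAH. The 15 pairs without CMAH run from -0.23 (CMAS with NEU1) to 0.32 (GNE with PGM3).

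The genes were also set against 4 measures that vary across whole retinas: the first principal component of the tested probe sets, and the mean deviation of 18 interferon response genes, of 10 Mueller glia genes and of 7 pigment epithelium genes. Of the 28 relations, 0 passed at a Benjamini-Hochberg adjusted p under 0.05 and 1 had an unadjusted permutation p under 0.05 by r. That one was CMAS with the Mueller glia genes (r = -0.597, rho = -0.606, permutation p = 0.0138 and 0.0124, adjusted p = 0.386 for r). It was negative in both diets, -0.397 with sialyllactose and -0.712 in the control group (n = 9 each), and -0.490 without the 2 retinas with the most extreme glia score. The list score ran from -0.16 to 0.15 in sialyllactose retinas and from -0.20 to 0.17 in control retinas, and the relation did not pass the correction. Of the 10 glia genes 9 had lower means with sialyllactose (median difference -0.10) and 0 passed. Over all tested probe sets 53.4% had lower means (median difference -0.01) and 0 passed. The glia count was not repeated after rescaling, and the part of these genes in the CMAS values was not tested.

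The sign of a principal component is arbitrary, and here it was set to rise with the Mueller glia score. How far these measures share the same variation was not tested. With that sign, CMAS was lower where the first principal component was higher (r = -0.483, rho = -0.657, permutation p = 0.0954 and 0.00601, adjusted p = 0.796 for r, -0.348 with sialyllactose and -0.514 in the control group, -0.628 without the 2 farthest retinas). NANS had r = 0.434 with that component (rho = 0.280, permutation p = 0.0677 and 0.262, adjusted p = 0.796 for r, -0.131 with sialyllactose and 0.813 in the control group). That value rested on control replicate 2, which stood apart on the component, and was 0.075 without that retina and 0.016 without the 2 farthest. The component took up 14.4% of the variance within diets. The interferon score ran from -0.68 to 1.46 in sialyllactose retinas and from -0.68 to 0.84 in control retinas. Its r with the 7 genes lay between -0.04 and 0.32 over all retinas. Within diets it was 0.374 and -0.628 for NANS, and -0.325 and 0.642 for CMAS (sialyllactose before control). The sign also differed between diets for GNE, PGM3 and GNPNAT1, but not for NEU1 and CMAH. These differences between diets were not tested.

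**Figure D4:**
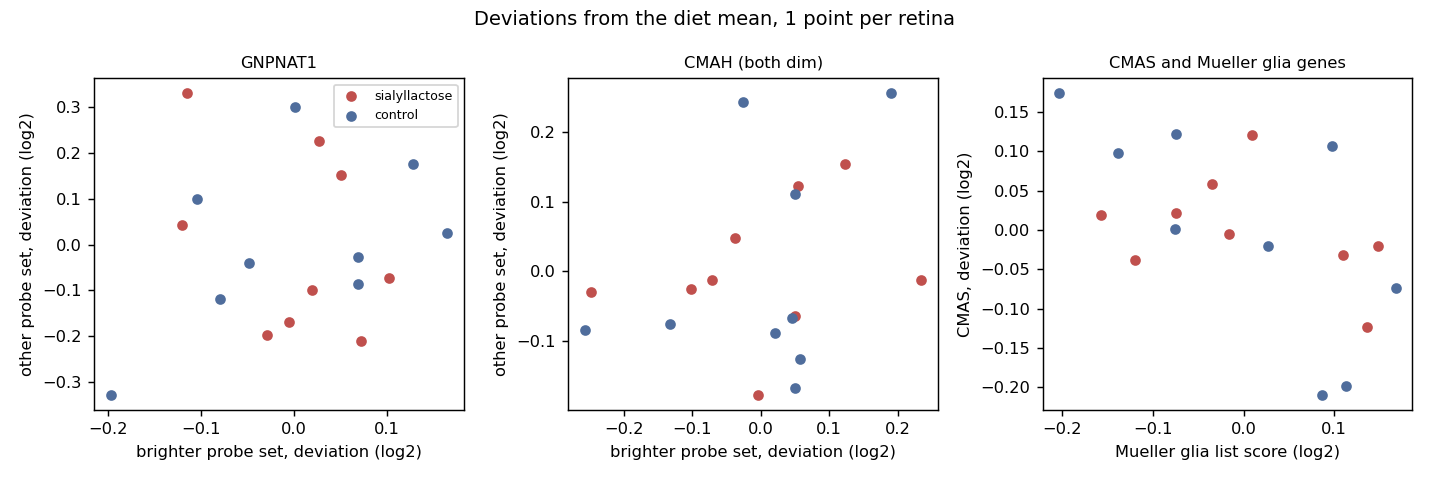
Deviations from the diet mean in log2 units, 1 point per retina (red sialyllactose, blue control): left and middle, the probe sets of GNPNAT1 (r = 0.125) and of CMAH (r = 0.312, both dim) against each other; right, CMAS against the mean deviation of 10 Mueller glia genes (r = -0.597, adjusted p = 0.386). The GNPNAT1 points show no common slope, and the lowest CMAS values lie at high glia scores.

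For each of the 6 genes past the filter, the genes with the most similar course over the 18 retinas were picked by Pearson r. The diet mean was removed first. The search covered 5709 other genes with 1 gene symbol, each at its brightest tested probe set. Over all other tested probe sets the highest r was 0.898 for GNPNAT1, 0.886 for CMAS, 0.824 for NANS and 0.822 for GNE. These lay above the r of their named genes. For PGM3 and NEU1 the highest r was that of a named gene. The values are extremes of many coefficients, so they describe these retinas and carry no test. GNE was most like ALDH3A2, a fatty aldehyde dehydrogenase (r = 0.767), STAMBPL1, a deubiquitinase (0.707), and TFEB, a transcription factor of lysosomal genes (0.702), and least like DCTN3, a dynactin subunit (-0.758). The TFEB value was uneven between diets, 0.405 with sialyllactose and 0.884 in the control group, and rho for STAMBPL1 was only 0.497. NANS was closest to NPPB, which encodes a natriuretic peptide (0.764), GOSR2, a Golgi SNARE protein (0.761), and COMMD4 (0.755), with ATL2, which shapes the endoplasmic reticulum, at the other end (-0.790). By rank these values were lower, with rho of 0.517 for NPPB, 0.549 for GOSR2, 0.511 for COMMD4 and -0.642 for ATL2.

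CMAS ran with FIG4, a phosphoinositide phosphatase (0.807), VSNL1, a neuronal calcium sensor (0.802), and EPB41L3, a membrane skeleton protein (0.791), and opposite to EVL, an actin regulator (-0.834). The FIG4 value was uneven between diets, 0.325 with sialyllactose and 0.924 in the control group. PGM3 was nearest to ADSL, an enzyme of purine synthesis (0.815), PSMB4, a proteasome subunit (0.784), and RPL38, a ribosomal protein (0.768), and farthest from GIT1, a signalling scaffold (-0.869). Its r with ADSL was 0.871 within the sialyllactose group and 0.789 within the control group.

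NEU1 had SLC37A1, a sugar phosphate transporter (0.814), SLC22A6, an organic anion transporter (0.766), and PGLYRP2, a peptidoglycan hydrolase (0.759), as its nearest genes, and CRIPT as its most opposed one (-0.805). GNPNAT1 was closest to TSPAN31 (0.698), MPV17L2 (0.684) and ARGLU1 (0.682) and most opposed to GIPC1 (-0.786). The 24 genes named this way were all different, so no gene was shared between the 6 sets. None was itself one of the 7 genes of the route.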

How the data were processed

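Retinal RNA of 18 piglets was hybridised to Affymetrix pig arrays, 1 array each. The deposited values are log2 levels per probe set, made with Affymetrix Expression Console and RMA per the submitters' processing notes. RMA settings, scan dates and a genome build are not given in the sources used here, so no batch was tested and no coordinates are printed. RMA gives no detection call, and the number of arrays limits the precision.

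Groups came from the titles. After 124 control probe sets, the 7200 with the lowest mean (30%) were left out, leaving 16799. Of 24123 probe sets, 10099 had 1 gene symbol, 198 several and 13826 none. 0 symbols changed through RefSeq. Each gene was read at its brightest tested probe set. Diets were compared with limma 3.58.1 (R 4.3.3, lmFit, eBayes, no covariates), with Benjamini-Hochberg adjustment over all tested probe sets. The limma p-values set the diet difference against the spread between piglets, taken as independent. The labels do not state litters, so shared litters could not be accounted for and independence was not tested. Correlations used 100000 permutations within diet (Python 3.11.15). Both steps were tested on simulated data.

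The genes and lists were chosen with earlier results of these data known. Named are all probe sets of the 7 genes, all tested genes of the UDP-GlcNAc and other sialic acid lists, the 2 with the smallest p of the sialyltransferase and lysosome lists, and, per gene, the 3 most similar and 1 most opposed. Which markers and dim genes are named was chosen after values were seen. Replicate numbers were not treated as pairs, because nothing in the labels ties them. Deviations of same-numbered piglets correlated between -0.11 and 0.16, over 0.1 in 3 of 9 pairs. However, 6 arrays correlated best with their own number on the other diet, where chance alone gives 2. Alternatives are given in the closing section.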

Additional observations from a re-analysis of the deposited data

Results flagged for a closer look

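In 18 groups of 9 retinas (9 probe sets, 2 diets), 2 held a retina whose gap to its neighbour was a large share of the group's range by Dixon's criterion. Chance flags about 1 in 20 groups. NANS in sialyllactose replicate 7 had a level of 5.87, the highest of that diet. NEU1 in sialyllactose replicate 1 had a level of 3.34, the lowest of that diet.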

How the results depend on the processing

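Under all alternatives run, 0 of the 7 tested probe sets passed after adjustment, and 0 gene pairs and 0 relations with retina-wide measures passed. The exact permutation test put PGM3 (-0.14) under an unadjusted 0.05, without adjustment over probe sets. NEU1 turned sign to 0.016 with array medians subtracted and 0.011 with quantile normalization, and ran from -0.017 to 0.027 without single arrays. GNPNAT1, as the mean of its probe sets, differed by 0.02. With the replicate block the PGM3 difference was -0.14 (limma adjusted p = 0.725) and 0 probe sets were called. 6 of 18 arrays correlated best with their own number on the other diet, where chance alone gives 2. A pair that matches in both directions counts as 2 of these arrays. The count was not tested, and the labels state no link.

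Other values that turned sign were small, and the cause was not tested. With centring and with quantile normalization, OGT differed by 0.00764 and 0.00930, HK1 by 0.00805 and 0.00633, MGEA5 by 0.012 and 0.015, and the median of all tested probe sets by 0.011 and 0.00210 (0.00126 without a filter). With array weights AMDHD2 and HK1 each differed by 0.012. With a 50% filter, which left fewer genes, the median of the other sialic acid list was 0.024, with 1 lower mean. Under that filter 0 sialyltransferases had lower means. NANS with CMAS had r = 0.093 without the first principal component, and PGM3 with GNPNAT1 r = -0.071 with the diet mean kept. Without single arrays, GNE ran from -0.13 to -0.056, the dimmer GNPNAT1 probe set from -0.091 to -0.012 and NANP from -0.26 to -0.096. Ranges that crossed 0 were -0.12 to 0.016 for NAGK, -0.063 to 0.00076 for RENBP, -0.071 to 0.029 for AMDHD2, -0.026 to 0.0026 for OGT, -0.033 to 0.013 for HK1, -0.063 to 0.036 for MGEA5, -0.011 to 0.14 for NPL and, for r of the GNPNAT1 probe sets, -0.15 to 0.31. CMAH lay near the array floor, where a difference may be understated.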

Other observations

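The log2 distance between GNPNAT1 and PGM3, neighbouring enzymes of the hexosamine pathway, was looked at because their diet differences had opposite signs. It was chosen after those values were seen, so it carries no test. It ranged from 0.405 to 0.743 with a median of 0.673 in sialyllactose retinas, and from 0.207 to 0.556 with a median of 0.349 in control retinas. All 9 sialyllactose retinas lay above the control median, and the ranges overlapped. Its absolute size carries the brightness of the probes, and only the diets can be set side by side. The distance rests on the brighter GNPNAT1 probe set, which differed by 0.09 between diets, and on PGM3, which differed by -0.14. The other GNPNAT1 probe set differed by -0.05, opposite in sign to the brighter one and smaller in size than PGM3. The distance was not computed with it.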
